A study of Rattus norvegicus with 6 samples.

Results

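The genes described here encode the liver enzymes that break amino acids down. They were chosen from a list of 44 rat genes, grouped by the amino acid each enzyme acts on, and 41 of them were tested among 28112 features. Uroc1, Gldc and Shmt1 had no matching probe and were not analysed here. The 41 genes had 62 probes, all of them well above background on all 6 arrays.

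Liver RNA came from male rats of the outbred Sprague-Dawley strain, which were 5 weeks old when bought. A group of 3 rats received corn oil, the vehicle. A group of 3 received 1000 mg/kg/day of the flame retardant 2,2-bis(bromomethyl)-1,3-propanediol, a brominated diol abbreviated BBMP. The labels give the time both as 28 days and as 9 weeks. Each liver was hybridised to its own 1-colour array, so the precision is limited by how few arrays there are. Values are the log2 signal of a gene's probe minus the log2 of that array's 75th percentile, so 0 is the brightness of the 75th percentile and a difference of 1 is a doubling. They are compared between animals and not between genes, because probes differ in brightness.

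The liver is the main site of breakdown for most amino acids. The carbon skeletons feed glucose and ketone body synthesis, the nitrogen goes to urea, and sulphur amino acids yield methyl groups, cysteine and taurine. Several of the entry enzymes, among them tyrosine aminotransferase (Tat), tryptophan 2,3-dioxygenase (Tdo2) and serine dehydratase (Sds), are classic genes under the control of glucocorticoids and glucagon, and their levels in liver follow fasting, diet and time of day. Branched-chain amino acids are the exception, since much of their transamination takes place in muscle.

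Between 60.1% and 64.4% of the probes on each array were well above background, and correlations between arrays lay between 0.986 and 0.992. The corn oil livers shared 1 slide and 1 scan, and the BBMP livers shared another. Treatment, slide and scan therefore cannot be told apart in any value given here. The 8 hepatocyte markers were well above background on every array, and their mean level ran from 8.78 to 8.92 in the corn oil livers and from 8.71 to 8.93 in the BBMP livers. In a bulk sample, fewer cells of a type and less RNA per cell cannot be told apart.

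The comparison asks which enzymes differed in the livers of rats given BBMP. Of the 41 enzymes, 28 had a higher mean in the BBMP group and 13 a lower one, and the median difference was 0.16 on the log2 scale, against -0.01 over all features. A higher mean was found for 68.3% of the enzymes and for 47.5% of all features. The enzymes of alanine, aspartate, glutamate and glutamine, of histidine and of serine and glycine had higher means in every gene tested. Those of branched-chain amino acids were split, and both enzymes on the way from cysteine to taurine had lower means.

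None of these differences passed the adjusted threshold. With limma and Benjamini-Hochberg adjustment over all 28112 features, 0 of the 41 enzymes had an adjusted p under 0.05 and the smallest was 0.407, where 0.00711% of all features (2 genes) passed. At an unadjusted p under 0.05 there were 4 enzymes (Gls2, Gpt and Tdo2 higher, Prodh lower), which is 3 of 41 higher against 4.7% of all features, 1 of 41 lower against 6.1%, and 4 in all against 10.8%. The 3 values of 1 group all lay above the 3 of the other for 5 enzymes, against 17.8% of all features. Of these, Gls2, Haao and Ahcy were higher, against 8.23% of all features, and Prodh and Hgd lower, against 9.6%. Apart from the 3 of 41 higher enzymes at an unadjusted p under 0.05, which lie above the 4.7% of all features, the counts of enzymes lie below the shares of all features in this fit. That reading turned with the processing. With normexp background correction, 8 of 41 enzymes had an unadjusted p under 0.05 against 11.6% of all features and 10 of 41 were apart against 17.5%. With a mean-variance trend and robust moderation, 8 of 41 had an unadjusted p under 0.05 against 11.2%.

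For 35 of the 41 enzymes, leaving out 1 of the 6 livers moved the difference by over 1.5 times or turned its sign. The 6 others were Gls2, Gpt, Prodh, Agxt, Dmgdh and Hibadh.

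**Figure D1:**
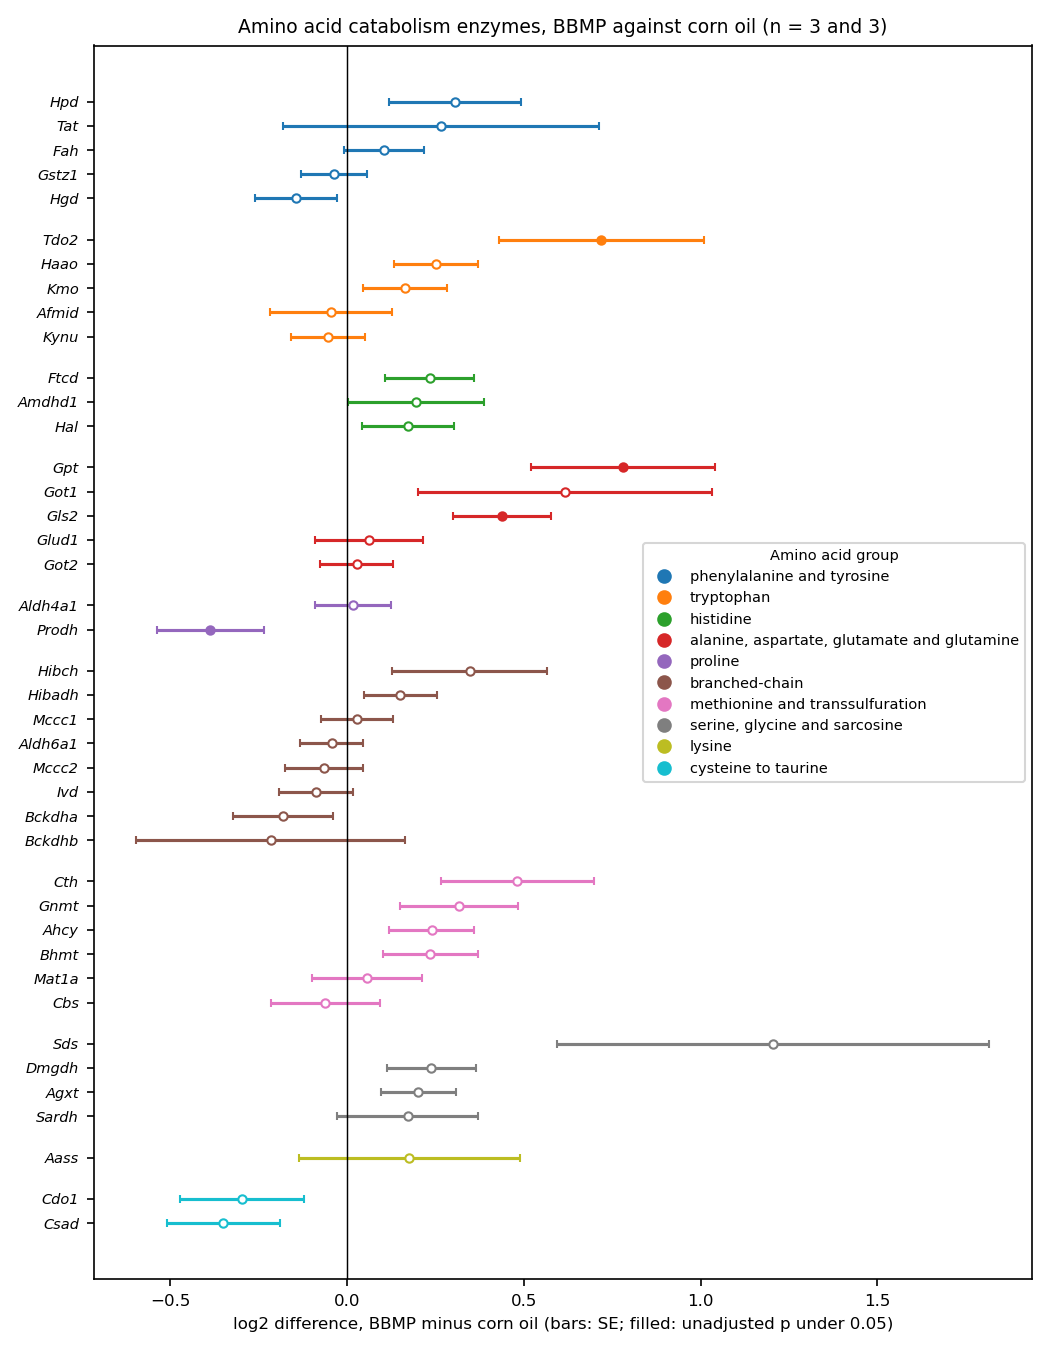
Difference of each of the 41 enzymes between BBMP and corn oil livers (log2, horizontal axis), ordered by amino acid group. Points are differences of group means with 3 rats each, bars are standard errors, and the 4 filled points have an unadjusted p under 0.05. The differences run from -0.39 (Prodh) to 1.21 (Sds), and none passed the adjusted threshold.

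The amino acids that enter metabolism by passing their nitrogen to or from glutamate had the largest group median, 0.44 over 5 enzymes. Gls2 encodes the liver glutaminase, which releases ammonia from glutamine for the urea cycle. Its values were 6.50, 6.34 and 6.49 in the corn oil livers and 6.90, 7.09 and 6.64 in the BBMP livers. The groups did not overlap, and the difference was 0.44 ± 0.14 (SE, n = 3 and 3, adjusted p = 0.407 by limma). A further probe of Gls2 differed by 0.58, with groups that again did not overlap.

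Gpt encodes alanine aminotransferase, which turns alanine into pyruvate and is measured in serum as a marker of liver injury. Its values were 4.49, 3.87 and 3.72 with corn oil and 4.81, 5.16 and 4.46 with BBMP. Only the highest corn oil liver reached into the BBMP range. The difference was 0.78 ± 0.26, or 1.72-fold (SE, n = 3 and 3, adjusted p = 0.415 by limma), and a further probe of the gene differed by 0.96 with no overlap.

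Got1, the cytosolic aspartate aminotransferase, had values of 4.22, 3.61 and 4.15 with corn oil and 4.54, 5.47 and 3.82 with BBMP. The groups overlapped, and the liver of BBMP rat 2 stood highest by a wide margin. The difference was 0.62 ± 0.42 (SE, adjusted p = 0.614 by limma) and became 0.19 without that liver. Got2, the mitochondrial form, differed by 0.03 ± 0.10, and Glud1, the glutamate dehydrogenase that releases ammonia in mitochondria, by 0.06 ± 0.15. The 95% confidence interval for Got2 ran from -0.22 to 0.28.

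Serine dehydratase, the product of Sds, turns serine into pyruvate and had the largest difference of the 41 enzymes. Its values were 1.01, 1.85 and 1.63 with corn oil and 2.37, 4.09 and 1.65 with BBMP. BBMP rat 2 was highest, BBMP rat 1 next, and BBMP rat 3 lay inside the corn oil range. The difference was 1.21 ± 0.61 (SE, n = 3 and 3, 95% confidence interval -0.27 to 2.68, adjusted p = 0.521 by limma). It was 0.51 without BBMP rat 2, and the other probe of Sds gave 0.75.

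The remaining enzymes of serine, glycine and sarcosine differed little. Agxt, the alanine-glyoxylate aminotransferase, differed by 0.20 ± 0.11. Its groups overlapped, while its other probe differed by 0.23 with groups apart. Dmgdh and Sardh, the mitochondrial dehydrogenases of dimethylglycine and sarcosine, differed by 0.24 ± 0.13 and 0.17 ± 0.20 with overlapping groups. Sardh differed by 0.01 without BBMP rat 2.

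Tdo2 encodes the first enzyme of the kynurenine pathway of tryptophan. Its values were 5.89, 5.73 and 6.31 with corn oil and 6.57, 7.28 and 6.24 with BBMP. BBMP rats 1 and 2 lay above all the corn oil livers and BBMP rat 3 just below the highest of them. The difference was 0.72 ± 0.29, or 1.65-fold (SE, n = 3 and 3, adjusted p = 0.457 by limma), and 0.43 without BBMP rat 2.

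The later steps of that pathway differed less. Haao, which makes the precursor of quinolinate and so of NAD, had values of 3.76, 3.47 and 3.69 with corn oil and 3.96, 3.78 and 3.95 with BBMP. The groups were just apart, with a difference of 0.25 ± 0.12 (SE, adjusted p = 0.495 by limma), or 0.17 without corn oil rat 2. Kmo, the kynurenine monooxygenase, differed by 0.16 ± 0.12 and by 0.27 without BBMP rat 1, while the means of the formamidase gene Afmid and the kynureninase gene Kynu were lower by 0.05 each, well inside their standard errors of 0.17 and 0.10.

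Tat, which starts tyrosine breakdown, had values of 1.94, 2.44 and 1.84 with corn oil and 1.95, 3.37 and 1.69 with BBMP. BBMP rat 2 was the highest of the 6 livers and BBMP rat 3 the lowest. The difference of 0.27 ± 0.45 (SE, n = 3 and 3, adjusted p = 0.852 by limma) became -0.25 without BBMP rat 2.

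Of the enzymes after Tat, Hpd, the dioxygenase that makes homogentisate, differed by 0.31 ± 0.19, and by 0.13 without BBMP rat 2. Hgd, which opens the homogentisate ring, had values of 6.72, 6.84 and 6.71 with corn oil and 6.42, 6.70 and 6.70 with BBMP. Its groups were apart by less than the second decimal, and its other probe overlapped. The difference was -0.14 ± 0.12 (SE, adjusted p = 0.676 by limma) and became -0.05 without BBMP rat 1. Fah and Gstz1, which complete the route to fumarate and acetoacetate, differed by 0.10 ± 0.11 and -0.04 ± 0.09.

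The highest value lay in BBMP rat 2 for the first or rate-limiting enzymes Tdo2, Gls2, Tat, Mat1a, Cbs, Aass, Sds and Gpt. For the others of these enzymes it lay elsewhere, in BBMP rat 3 for Hal, corn oil rat 1 for Prodh and Bckdha, and corn oil rat 2 for Cdo1. Of all features, 17.6% had their highest value in BBMP rat 2. No upstream sequence was available for Sds and Gpt. The sequences upstream of Tdo2, Gls2 and Tat are shown as examples. They are the 250 bases before the annotated start in RefSeq, build GRCr8, 5′ to 3′ along the gene, at chr2:169585587-169585836 on the minus strand for Tdo2, chr7:1201629-1201878 on the plus strand for Gls2 (the upstream one of its starts) and chr19:54856354-54856603 on the plus strand for Tat. Capitals mark matches to the 6 motifs searched.
Tdo2: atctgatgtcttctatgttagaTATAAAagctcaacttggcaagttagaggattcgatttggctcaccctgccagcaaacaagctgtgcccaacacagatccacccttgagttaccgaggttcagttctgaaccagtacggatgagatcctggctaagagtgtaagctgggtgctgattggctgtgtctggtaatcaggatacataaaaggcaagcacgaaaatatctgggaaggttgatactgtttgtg
Gls2: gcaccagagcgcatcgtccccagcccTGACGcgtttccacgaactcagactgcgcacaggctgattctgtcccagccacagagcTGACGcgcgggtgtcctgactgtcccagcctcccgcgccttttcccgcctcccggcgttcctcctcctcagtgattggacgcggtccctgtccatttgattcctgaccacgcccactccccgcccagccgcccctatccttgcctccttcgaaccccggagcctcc
Tat: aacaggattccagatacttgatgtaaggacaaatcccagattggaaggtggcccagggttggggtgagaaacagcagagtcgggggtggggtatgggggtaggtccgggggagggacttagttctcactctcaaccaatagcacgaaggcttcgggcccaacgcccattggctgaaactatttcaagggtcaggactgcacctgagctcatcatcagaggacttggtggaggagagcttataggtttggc

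The motifs were searched on both strands, and overlapping matches were allowed. They were the steroid receptor half-site TGTTCT, the cyclic AMP response half-site TGACG, the C/EBP site TTNNGNAA, the HNF1 half-site GTTAAT, the HNF4 site CAAAGTCCA and the TATA box TATAAA. Gls2 held TGACG at bases -224 to -220 and -166 to -162 from the start, and Tdo2 held TATAAA at -228 to -223. Tat had no match in this window. Among the 35 enzyme genes with a sequence in the table, TGTTCT was found in 5 genes, TGACG in 4, TTNNGNAA in 10, GTTAAT in 3, CAAAGTCCA in 1 and TATAAA in 4. In all 33469 windows of this length the shares were 17.5%, 18.2%, 37.2%, 6.45%, 0.338% and 12.9%. These shares are by window. The 35 genes had 38 windows, and for each motif the count of windows with a match equalled the count of genes. Such matches describe letters and show no binding.

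Methionine is first activated to S-adenosylmethionine, the methyl donor of the cell, and then passes through homocysteine to cysteine. Of the 6 enzymes on this route 5 had higher means, with a median difference of 0.24. Ahcy, which splits S-adenosylhomocysteine, had values of 7.60, 7.44 and 7.58 with corn oil and 7.71, 7.98 and 7.66 with BBMP. The groups did not overlap, and the difference was 0.24 ± 0.12 (SE, n = 3 and 3, adjusted p = 0.522 by limma). It was 0.14 without BBMP rat 2.

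Mat1a, which makes S-adenosylmethionine in liver, had values of 8.53, 8.41 and 8.55 with corn oil and 8.49, 8.86 and 8.31 with BBMP. The BBMP livers held both the highest and the lowest value, and the difference of 0.06 ± 0.16 became -0.10 without BBMP rat 2. Gnmt, which uses surplus methyl groups to make sarcosine, differed by 0.32 ± 0.17, and by 0.21 without corn oil rat 1 and 0.49 without corn oil rat 3. Bhmt, which turns homocysteine back into methionine, differed by 0.24 ± 0.14 with overlapping groups, and by 0.14 without BBMP rat 2. Its other probe differed by 0.58 with groups apart.

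The transsulfuration enzymes Cbs and Cth act in sequence from homocysteine to cysteine. Cbs had values of 6.11, 6.01 and 5.85 with corn oil and 5.70, 6.20 and 5.88 with BBMP, with overlapping groups. Its difference was -0.06 ± 0.15 and its other probe gave 0.04. Cth differed by 0.48 ± 0.22 (SE, adjusted p = 0.487 by limma) and by 0.26 without corn oil rat 2, which had the lowest value.

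The enzymes that take cysteine on to taurine had lower means. Cdo1, the cysteine dioxygenase, had values of 4.20, 4.67 and 4.38 with corn oil and 4.06, 4.38 and 3.91 with BBMP. The groups overlapped, and the difference was -0.30 ± 0.18 (SE, n = 3 and 3, adjusted p = 0.567 by limma), or -0.17 without corn oil rat 2. Csad, which decarboxylates cysteine sulfinate, had values of 1.57, 1.65 and 1.40 with corn oil and 0.92, 1.18 and 1.47 with BBMP. BBMP rat 3 lay inside the corn oil range, and the difference was -0.35 ± 0.16 (SE, adjusted p = 0.489 by limma), or -0.22 without BBMP rat 1.

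For proline, too, the entry enzyme had a lower mean. Prodh, the mitochondrial proline dehydrogenase, had values of 6.32, 5.99 and 6.09 with corn oil and 5.78, 5.94 and 5.51 with BBMP. All BBMP livers lay below all corn oil livers. The difference was -0.39 ± 0.15 (SE, n = 3 and 3, adjusted p = 0.451 by limma), and the 4 probes of the gene gave -0.40 to -0.27. Another of these probes, at -0.29, had overlapping groups. Without BBMP rat 2 the difference was -0.49. Aldh4a1, the next enzyme of the route, differed by 0.02 ± 0.11.

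The histidine enzymes had small differences in the same direction. Hal, which removes ammonia from histidine, had values of 6.59, 6.71 and 6.35 with corn oil and 6.60, 6.73 and 6.83 with BBMP. The groups overlapped and the difference was 0.17 ± 0.13 (SE, n = 3 and 3, adjusted p = 0.652 by limma). Amdhd1 and Ftcd, which act later on the route to glutamate, differed by 0.20 ± 0.19 and 0.23 ± 0.13. Without corn oil rat 3, the lowest for all 3 genes, Hal differed by 0.07 and Amdhd1 by 0.05. Without corn oil rat 1, Ftcd differed by 0.35.

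For lysine, the bifunctional entry enzyme Aass had values of 1.81, 1.04 and 1.84 with corn oil and 1.61, 2.27 and 1.34 with BBMP. Corn oil rat 2 was lowest and BBMP rat 2 highest. The difference of 0.18 ± 0.31 (SE, n = 3 and 3, adjusted p = 0.861 by limma) became -0.09 without either of those livers in turn.

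The branched-chain enzymes had the lowest median of the groups with 3 or more genes, -0.06 over 8 genes, 3 of them with a higher mean and 5 with a lower one. Bckdha, a subunit of the dehydrogenase complex that commits these amino acids to breakdown, had values of 3.84, 3.38 and 3.47 with corn oil and 3.39, 3.32 and 3.42 with BBMP. The groups overlapped, and the difference was -0.18 ± 0.14 (SE, n = 3 and 3, adjusted p = 0.663 by limma). It was -0.04 without corn oil rat 1, the highest of the 6.

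Bckdhb, the partner subunit, differed by -0.22 ± 0.38. Its corn oil livers ranged from 2.92 in rat 2 to 4.14 in rat 1. Ivd, which oxidises the leucine product, differed by -0.09 ± 0.10, and Mccc1 and Mccc2, the subunits of the carboxylase that follows it, by 0.03 ± 0.10 and -0.07 ± 0.11. On the valine route, Hibch differed by 0.35 ± 0.22 and by 0.11 without corn oil rat 2, its lowest liver. Hibadh differed by 0.15 ± 0.10 and Aldh6a1 by -0.04 ± 0.09.

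**Figure D2:**
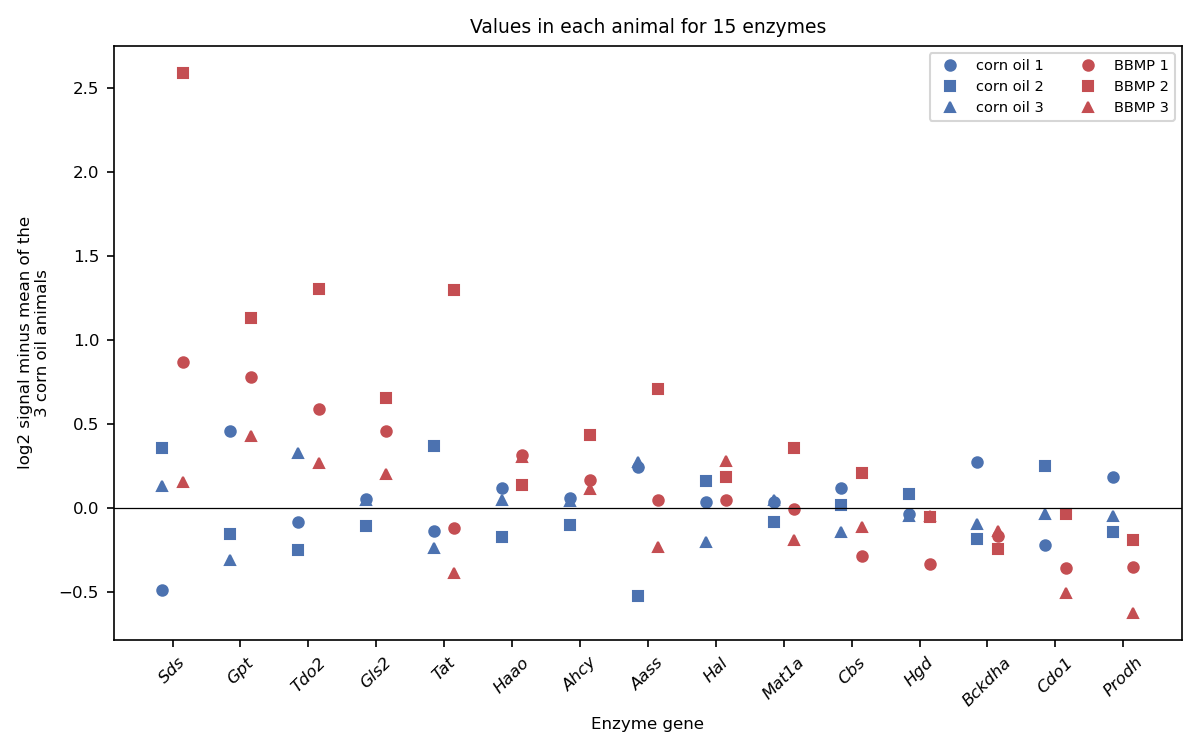
Values of 15 enzymes in each liver, as log2 signal minus the mean of the 3 corn oil livers (vertical axis). Blue marks are corn oil rats and red marks BBMP rats, with the same shape for the same rat number, which is not taken to pair the rats. For Sds, Tdo2 and Tat the liver of BBMP rat 2 lies highest, at 2.59, 1.30 and 1.30, and for Prodh all red marks lie below all blue ones.

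The highest values often lay in 1 animal. BBMP rat 2 held the highest of the 6 values for 19 of the 41 enzymes (46.3%), against 17.6% of all features, and the lowest for 1. Within the BBMP group it was highest for 24 enzymes (58.5%), against 37.8% of all features. Its values exceeded the corn oil mean for 29 enzymes, with a median difference of 0.21 and a largest difference of 2.59 (Sds). The corresponding medians were 0.04 for BBMP rat 1 and 0.09 for BBMP rat 3.

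In the corn oil group, rat 2 held the lowest of the 6 values for 13 enzymes (31.7%), against 22.0% of all features. Without BBMP rat 2 the median difference of the enzymes was 0.07, and without corn oil rat 2 it was 0.11. Only Prodh had an unadjusted p under 0.05 (limma) when either of these rats was left out. That is 1 of 41 enzymes, against 8.91% of all features without BBMP rat 2 and 6.88% without corn oil rat 2. When any other rat was left out, Prodh did not reach that threshold. The counts per animal describe these livers, since the comparison with all features carries no test.

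**Figure D3:**
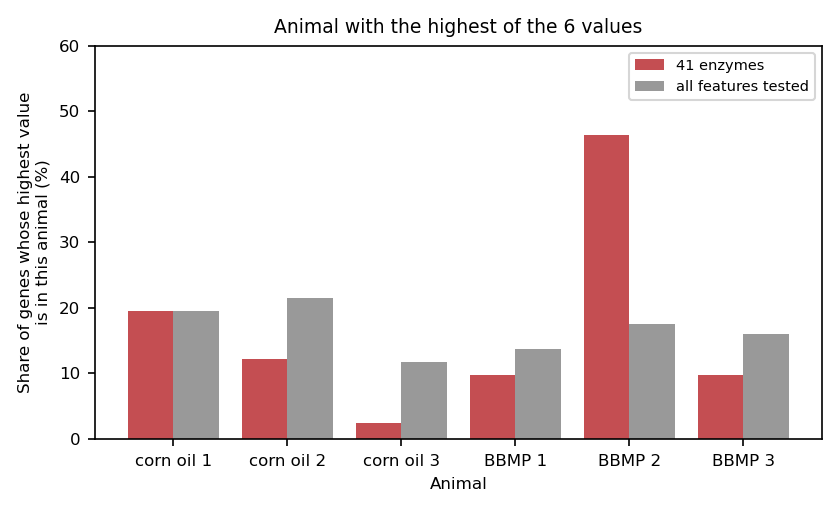
Share of genes whose highest of the 6 values lies in each animal (percent, vertical axis), for the 41 enzymes (red bars) and for all features tested (grey bars). The enzymes stand at 46.3% in BBMP rat 2, where all features stand at 17.6%, and at 2.44% in corn oil rat 3, where all features stand at 11.7%.

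The amino acid groups were not alike in this. In BBMP rat 2 the mean deviation of a group's genes from their 6-animal means was 0.70 for serine, glycine and sarcosine, 0.51 for alanine, aspartate, glutamate and glutamine, 0.37 for phenylalanine and tyrosine, 0.28 for tryptophan and 0.25 for methionine and transsulfuration. The branched-chain group stood at -0.07 in the same liver and cysteine to taurine at -0.04. BBMP rat 3 had its highest group mean, 0.18, for histidine.

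**Figure D4:**
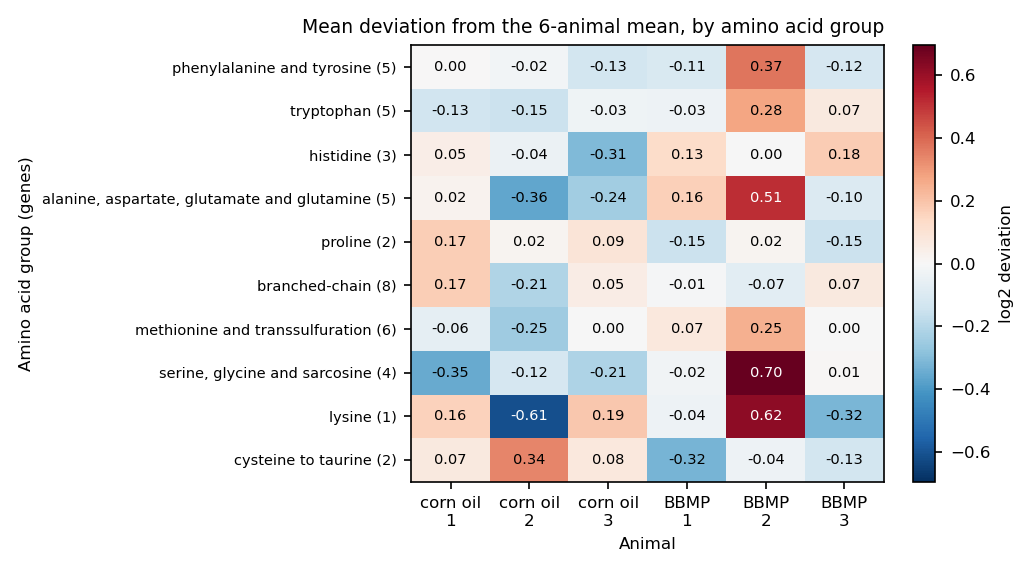
Mean over each amino acid group's genes of the deviation from the gene's mean over the 6 animals (log2, colour and printed value), with groups in rows and animals in columns and the number of genes in brackets. BBMP rat 2 reaches 0.70 for serine, glycine and sarcosine and 0.51 for alanine, aspartate, glutamate and glutamine, while the branched-chain group stays at -0.07 there.

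Other enzymes of amino acid breakdown were taken from a further list of 57 genes, of which 48 were tested. Of these 30 had a higher mean and 18 a lower one, with a median difference of 0.06, and 0 had an adjusted p under 0.05 (limma, 1 at an unadjusted p under 0.05, against 10.8% of all features). That gene was Mtr, the methionine synthase, with values of -1.93, -1.67 and -1.89 with corn oil and -2.46, -2.15 and -2.28 with BBMP. The groups did not overlap, and the difference was -0.47 ± 0.13 (SE, adjusted p = 0.399 by limma). BBMP rat 2 held the highest value for 14 of the 48 genes, against 17.6% of all features.

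Among 13 amino acid transporters tested of 17 listed, 6 had higher and 7 lower means, with a median of -0.01. At an unadjusted p under 0.05 there were 2, both with lower means, against 6.1% of all features with lower means. Slc6a6, the taurine transporter, had values of 0.76, 1.03 and 0.65 with corn oil and -0.55, -0.65 and 0.34 with BBMP. The groups did not overlap, and the difference was -1.10 ± 0.28 (SE, n = 3 and 3, adjusted p = 0.388 by limma). Slc3a1, a subunit of the transporter of cystine and basic amino acids, differed by -0.39 ± 0.15 (SE, adjusted p = 0.442 by limma).

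Of 16 listed regulators of liver metabolism 15 were tested, with 9 higher and 6 lower means and 0 at an unadjusted p under 0.05 (limma), against 10.8% of all features. BBMP rat 2 held the highest value for 7 of the 15, against 17.6% of all features. Fkbp5, Tsc22d3 and Klf15, all known targets of the glucocorticoid receptor and named here after their values were seen, were among the 7. Fkbp5 had values of 1.67, 1.37 and 3.56 with corn oil and 2.89, 4.50 and 1.68 with BBMP. Klf15 had values of 4.81, 3.97 and 4.41 with corn oil and 5.39, 5.42 and 4.12 with BBMP. Their groups overlapped, with differences of 0.82 ± 0.85 and 0.58 ± 0.40 (SE). BBMP rat 3 lay inside the corn oil range for both, and for Fkbp5 so did BBMP rat 1. Tsc22d3 had values of 2.85, 1.62 and 2.50 with corn oil and 3.21, 3.79 and 1.60 with BBMP. Its lowest value lay in BBMP rat 3, and its groups overlapped, with a difference of 0.54 ± 0.60 (SE). Whether glucocorticoid action differed between these livers was not tested. Nr3c1, the glucocorticoid receptor itself, differed by -0.10 ± 0.16.

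Markers of liver zones and of other cells were set beside these values. The 6 periportal markers were split evenly, 3 higher and 3 lower, with mean levels of 5.95 to 6.14 in corn oil livers and 5.95 to 6.11 in BBMP livers. Of the 8 pericentral markers 7 had lower means, with levels of 2.65 to 2.91 and 2.29 to 2.63. All 10 Kupffer cell markers had higher means, with a median of 0.33 and levels of 1.63 to 2.39 and 1.80 to 2.56, and 6 of 9 stellate cell markers had lower ones, with levels of 1.08 to 1.16 and 0.82 to 1.05. All 5 red cell markers had lower means, with levels of 3.44 to 4.01 and 2.77 to 4.13. Means were higher for 4 of 5 endothelial, 3 of 7 T and NK cell, 2 of 5 cholangiocyte and 2 of 8 hepatocyte markers. Of all features 47.5% had a higher mean. An unadjusted p under 0.05 (limma) was found for 10.8% of all features. Among markers it was found for 3 stellate cell, 2 pericentral, 2 hepatocyte, 1 periportal and 1 cholangiocyte marker. For Kupffer, red, endothelial, T and NK cells it was found for 0 markers. The part of these cells in the enzyme values was not tested.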

How the data were processed

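Probe brightness in each liver was deposited as linear intensity in 1 scanner file per array. Feature Extraction 10.7.1.1 read the arrays (Agilent design 035170, build rn4) and subtracted background, per the file headers. Agilent Feature Extraction 10.7 is the tool given in the submitters' processing notes. The authors' value table holds the same intensity divided by 1 constant per array near its 75th percentile, with column medians from 0.0965 to 0.0998, no centring of probes and a purpose not given in the sources used here.

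Control spots and 84 spike-in probes were left out, which left 61573 probes. Of these 27460 (44.6%) were named through their accession in RefSeq's GRCr8 gene table. The log2 of processed signal minus the log2 of the array's 75th percentile (450.1 to 570.4 intensity units) was analysed. Testing required a probe well above background on every array of either group, and the brightest such probe stood for its gene. Groups were taken from the labels and compared two-sided by limma 3.58.1 (R 4.3.3, lmFit then eBayes, without covariates) with Benjamini-Hochberg adjustment, a fit tested on simulated data.

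The enzymes, lists and alternatives were chosen with earlier results of these data known. Given with values in every animal were enzymes at an unadjusted p under 0.05 or with groups apart, and the entry enzyme of each amino acid. Got1, Csad, Fkbp5, Klf15 and Tsc22d3 were added once their values were known. Alternatives comprised other scalings, background correction, filters, probe rules and moderation, the value table, a block for the replicate number and leaving out each array. For normexp, the planned mean spot signal was replaced by the median, the column these files carry.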

Additional observations from a re-analysis of the deposited data

How the results depend on the processing

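Under all 15 alternatives 0 enzymes had an adjusted p under 0.05 (limma), and the smallest was 0.315. Of 615 recomputed enzyme differences 596 kept their direction. That count includes fits in which every difference equalled that of the main fit. These were no filter, the filter on all 6 arrays, the trend and robust moderation, and the replicate block. The mean of probes likewise left genes with 1 probe unchanged. The count therefore overstates how well directions held. The features past the adjusted threshold, 2 here, numbered 0 with normexp, 1 with no filter, 0 with a filter on all 6 arrays, 0 with the replicate block and 0 to 4 without 1 animal. The 4 enzymes at an unadjusted p under 0.05 became 8 with normexp (11.6% of all features) and 2 with no filter (Gls2 and Gpt, 7.22%). They became 8 with a mean-variance trend and robust moderation (11.2%) and 3 with the replicate block (Cth, Gls2 and Gpt, 11.5%). Without 1 animal they became 0 to 7. There were 0 without BBMP rat 1 (7.99% of all features) and 1 without BBMP rat 2 (8.91%). There was 1 without corn oil rat 2 (6.88%), and there were 7 without BBMP rat 3 (9.80%). The 5 enzymes with groups apart became 10 with normexp (17.5% of all features) and 9 to 13 without 1 animal, where fewer values overlap by construction and 24.3% to 31.5% of all features were apart. The median difference ran from 0.068 without BBMP rat 2 to 0.21 without BBMP rat 1, with 0.08 without corn oil rat 3. The causes of these moves were not tested beyond the smaller number of animals.

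The 19 values that changed sign belonged to 10 enzymes, all with a difference under 0.3 in size. Aldh4a1 was -0.0071 with quantile normalisation, and with normexp Got2, Aldh4a1 and Mccc1 were -0.018, -0.087 and -0.037. The other 15 sign changes came from leaving out 1 animal. Over the 6 such fits Tat ran from -0.25 (without BBMP rat 2) to 0.59, Mat1a from -0.097 (without BBMP rat 2) to 0.18, Aass from -0.089 (without BBMP rat 2) to 0.38, Glud1 from -0.063 (without BBMP rat 2) to 0.16 and Bckdhb from -0.62 (without corn oil rat 2) to 0.0094. Cbs ran from -0.20 to 0.051, Afmid from -0.13 to 0.11, Got2 from -0.0085 to 0.092, Mccc1 from -0.021 to 0.089 and Aldh4a1 from -0.047 to 0.093.

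Deviations of same-numbered rats correlated at 0.089, 0.016 and 0.072 over all features, and those of different-numbered rats at -0.10 to 0.033. With 3 rats per group these values cannot decide whether the replicate numbers pair the rats. No pairing was assumed in the main fit, and the block result stands only here. Its median difference was 0.16. The lowest signals well above background set the limit of detection, and all enzyme probes lay above it.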
